A study of Mus musculus with 8 samples.

Results

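The genes described here are the mouse Zfp genes, named for the zinc finger proteins they encode, in sorted spermatocytes and round spermatids. Members were taken by symbol (Zfp followed by a digit) and by coverage. A gene was kept when its most covered splicing event had a mean of at least 10 reads per library, inclusion and skipping reads together, in at least 1 stage. This left 204 of the 240 Zfp genes in the tables, among 11091 of 12583 genes of any name at the same coverage. Members were thus chosen by the reads of the most covered event, and levels by stage are given below as a description with no test. By that measure 141 members passed in both stages, 48 in spermatocytes alone, 15 in round spermatids alone, and the other 36 Zfp genes in neither. Passing in spermatocytes were thus 189 members, and in round spermatids 156. Genes of any name numbered 9861 in spermatocytes and 9315 in round spermatids, with 8081 passing in both. Just outside the threshold in spermatocytes were Zfp972 (9.25 reads) and Zfp560 (9.5), and just inside were Zfp945 (10.25) and Zfp11 (11.25). In round spermatids Zfp281 (9.0) and Zfp937 (9.5) fell just short, and Zfp932 (10) and Zfp874a (10.5) just passed.

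The study sorted both cell types by FACS after Hoechst 33342 staining from testes of adult C57BL/6 mice, either Larp7 conditional knock-out or wildtype, and sequenced polyadenylated RNA from 2 libraries of each genotype and stage. Larp7 binds 7SK RNA, which holds back transcription elongation, and also takes part in the modification of U6 snRNA. The Cre driver is not given in the sources used here, nor whether each library came from its own animal, so p-values measure the spread between these libraries. The deposited splicing tables name the stage but call the genotypes only sample 1 and sample 2, written here as the first and second sample group. Differences are first minus second.

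Most Zfp genes encode proteins with tandem C2H2 zinc fingers that bind DNA. A large subfamily also carries a KRAB domain, which recruits Trim28 (KAP1) and the H3K9 methyltransferase Setdb1, and many of its members silence retrotransposons. Other members bind RNA, act on ribosomes, or serve as ubiquitin or SUMO ligases. The KRAB A and B boxes are commonly encoded by separate short exons upstream of the exon that holds the fingers.

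Event reads per library ranged from 49904607 to 102000320. Larp7 reads were 184 and 219 CPM (counts per 1000000 of the reads of all genes' most covered events) in the first group of spermatocytes against 1147 and 1077 in the second, and 274 and 341 against 1164 and 1260 in round spermatids. Summed spermatocyte markers (9 of 9 measured) spanned 2914 to 4285 CPM in spermatocytes and 383 to 480 in round spermatids. All 9 were at least 2-fold higher in spermatocytes. Summed round spermatid markers spanned 731 to 953 CPM in spermatocytes (5 of 11 measured) and 2053 to 2267 in round spermatids (6 of 11, with Acrv1 added). Of the 5 measured in both stages, 3 were at least 2-fold higher in round spermatids and 0 in spermatocytes. On these markers the sorted stages thus differed in the direction of their labels.

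Zfp genes were covered more thinly than other genes. The median member had 8.29 CPM in spermatocytes against 25.1 over all genes tested, and 8.91 against 20.9 in round spermatids. Above 100 CPM were 20 of 189 members in spermatocytes (10.6%, against 22.6% of all genes) and 13 of 156 in round spermatids (8.33%, against 22.6%). CPM of an event is not scaled to length, so the order of genes by CPM is an order of coverage.

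The most covered members in spermatocytes were Zfp318, Zfp541, Zfp217, Zfp608 and Zfp956. Zfp318, a nuclear zinc finger protein abundant in testis, had 1418 and 1667 CPM (first group) against 1566 and 1661 (second group). Zfp541, which works with Kctd19 and histone deacetylases in the exit from pachytene, had 1007, 940, 992 and 1070 CPM. In round spermatids the order was Zfp451, Zfp217, Zfp438, Zfp318 and Zfp541. Zfp451, a SUMO ligase that also helps resolve topoisomerase 2 crosslinks, led with 1952 and 2625 CPM against 2867 and 2561. The sample groups overlapped for each of these genes except Zfp217 and Zfp608 in spermatocytes, both lower in the first group, and Zfp318 in round spermatids, higher in it. Such separation was common over all genes tested. In spermatocytes 40.5% of all genes were higher in the first group without overlap and 17.0% lower, and in round spermatids 25.3% and 17.6%.

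Between the stages most members had fewer reads in round spermatids. Each stage was taken as the mean of its 4 libraries, knock-out and wildtype together. Over the 141 members passing in both stages, the median log2 ratio of round spermatids over spermatocytes was -0.93, against -0.43 over 8081 genes. At least 2-fold higher in spermatocytes were 69 members (48.9%, against 34.8% of all genes), and 28 were at least 2-fold higher in round spermatids (19.9%, against 19.9%). After centring on the median of all genes the shares were 33.3% against 25.8% and 22.7% against 25.6%. All 4 spermatocyte libraries lay above all 4 round spermatid libraries for 77 members (54.6%, against 44.0%), and the reverse held for 35 (24.8%, against 25.3%). In bulk samples fewer cells with a transcript and less of it per cell cannot be told apart.

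The most covered event was the same in both stages for 85 of the 141 members, which matters for the extreme values. Zfp287 had 62.6 to 73.5 CPM in spermatocytes and 1.17 to 2.38 in round spermatids, a log2 ratio of -5.37. On an event measured in both stages its ratio was -1.88. Zfp598, the E3 ligase that acts at collided ribosomes, likewise went from -3.11 to -0.56. Zfp541 went from -1.66 to -0.13, and Zfp451 from 5.11 to 2.62. On shared events 136 of 139 members kept their sign, and the median was -0.66 against -0.36 for all genes.

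Among members with the same leading event, Zfp638 was the most covered of those at least 8-fold higher in spermatocytes. This nuclear protein, which takes part with the HUSH complex in silencing unintegrated retroviral DNA, had 296, 309, 332 and 314 CPM in spermatocytes and 39.7, 34.2, 36.0 and 34.7 in round spermatids. Zfp644, a partner of the methyltransferases G9a and GLP, had 288 to 314 CPM in spermatocytes and 51.3 to 78.9 in round spermatids. In the other direction Zfp474 had 4.11 to 6.90 CPM in spermatocytes and 73.1 to 108 in round spermatids. Zfp462 went from 1.07 to 4.56 CPM to 25.9 to 47.1, and Zfp72 from 0.49 to 2.03 to 12.8 to 19.5. Zfp711, an X-linked relative of Zfx, had 2.06 to 11.3 CPM in spermatocytes and 29.7 to 61.1 in round spermatids. No stage ranges overlapped for these 6 genes.

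**Figure D1:**
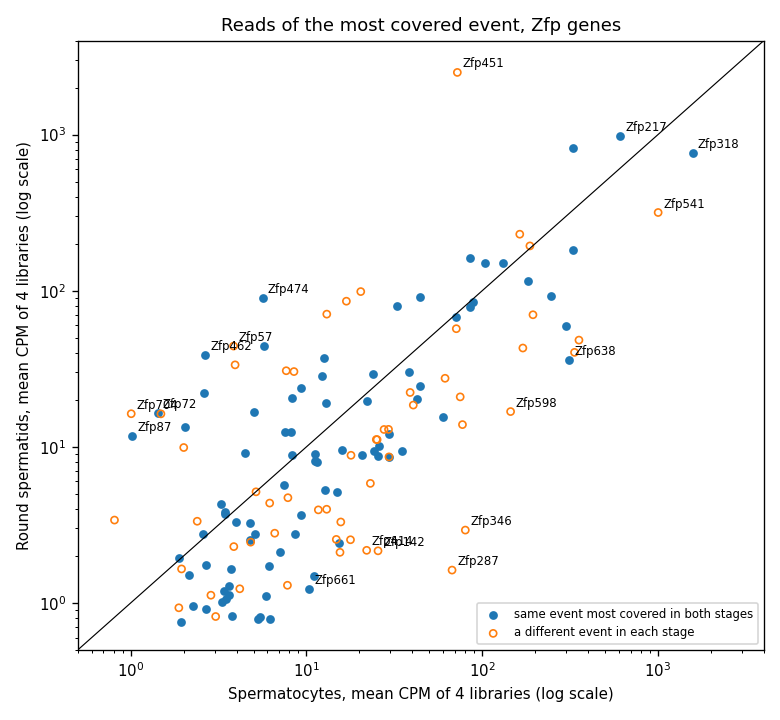
Each point is 1 of the 141 Zfp genes passing in both stages, with mean CPM over 4 spermatocyte libraries on the x axis and over 4 round spermatid libraries on the y axis, both on log scales; the line marks equal values. Most points lie below the line, and Zfp451 stands far above it, as an open symbol because its leading event differed between the stages.

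Members of known roles were read from lists of symbols. Of 15 genes acting on RNA or ribosomes, 7 passed in both stages, and 5 were at least 2-fold higher in spermatocytes (48.9% of all members and 34.8% of all genes were) and none in round spermatids. On a shared event the count was 4 of 7. Zfp207, a chaperone of the spindle checkpoint protein Bub3, had 159 to 176 CPM in spermatocytes and 30.5 to 55.4 in round spermatids. Zfp385a, a cofactor of p53, had 120 to 141 and 107 to 195 CPM, and these ranges overlapped. Of 28 listed regulators of transcription and chromatin, 18 passed in both, with 10 at least 2-fold higher in spermatocytes and 4 in round spermatids, or 6 and 3 of 17 on a shared event. Of 11 named KRAB genes, 6 passed in both, 4 at least 2-fold higher in spermatocytes, or 2 on a shared event. Over all members the shared event gave 57 of 139 (41.0%). Zfp57, which protects genomic imprints, was the 1 higher in round spermatids, with 40.7 to 49.2 CPM against 2.30 to 5.03, and 2.37 on the log2 scale on a shared event.

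Cassette exons, which are either included or skipped, were most often 127 nt long in Zfp genes. In spermatocytes 39 of 497 distinct member exons were 127 nt long (7.85%), against 253 of 37243 exons of other genes (0.679%), where that length ranked 34th. In round spermatids the counts were 30 of 362 (8.29%) and 0.606%. The next most frequent member length was 96 nt, with 18 exons (3.62%, against 0.889%) and 14 (3.87%, against 0.920%). Other zinc finger families had 1 of 236 and 2 of 156 exons of 127 nt and none of 96 nt. These are the usual lengths of the exons for the KRAB A and B boxes, but no protein annotation was used here, and Zfp451, which is not a KRAB gene, also holds an exon of 127 nt.

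**Figure D2:**
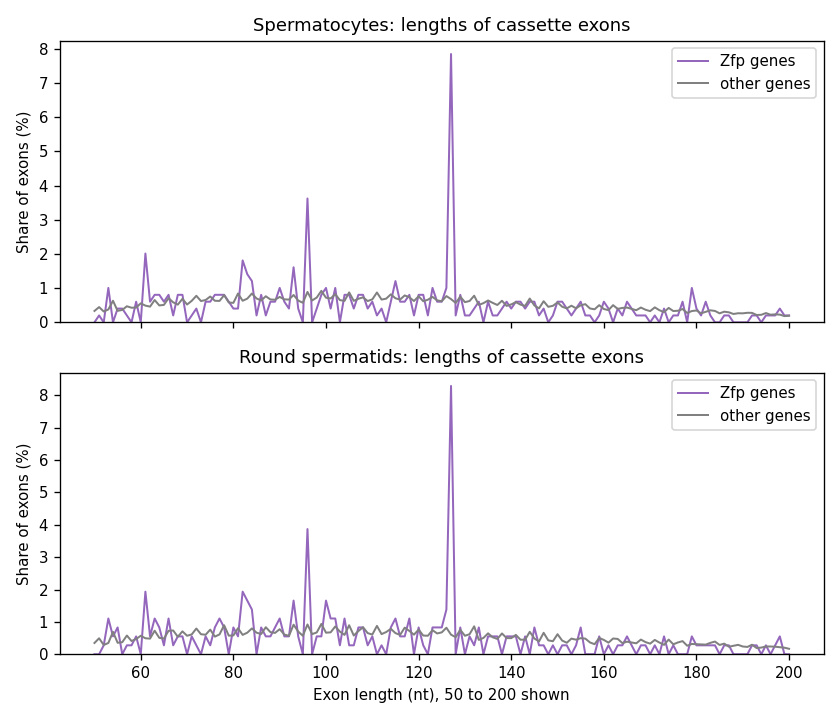
Share of distinct cassette exons at each length from 50 to 200 nt, for Zfp genes and for other genes, in each stage. Zfp genes peak at 127 nt (7.85% and 8.29%) and at 96 nt (3.62% and 3.87%).

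These exons were mostly included. With at least 10 reads, 38 exons of 127 nt had a median inclusion of 98.3% in spermatocytes, and 32 reached 90%. In round spermatids 29 such exons had a median of 98.6%, and 23 reached 90%. Exons of 96 nt had medians of 95.5% (17 exons) and 97.7% (12 exons), and exons of other lengths 97.9% and 97.5%. A few stood lower. Zfp474 included its 127-nt exon at 54.1%, 56.6%, 56.8% and 55.1% in spermatocytes and at 58.8%, 58.6%, 63.1% and 64.5% in round spermatids. Zfp688 included its 96-nt exon at 59.3% to 67.8% and at 38.5% to 62.8%.

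**Figure D3:**
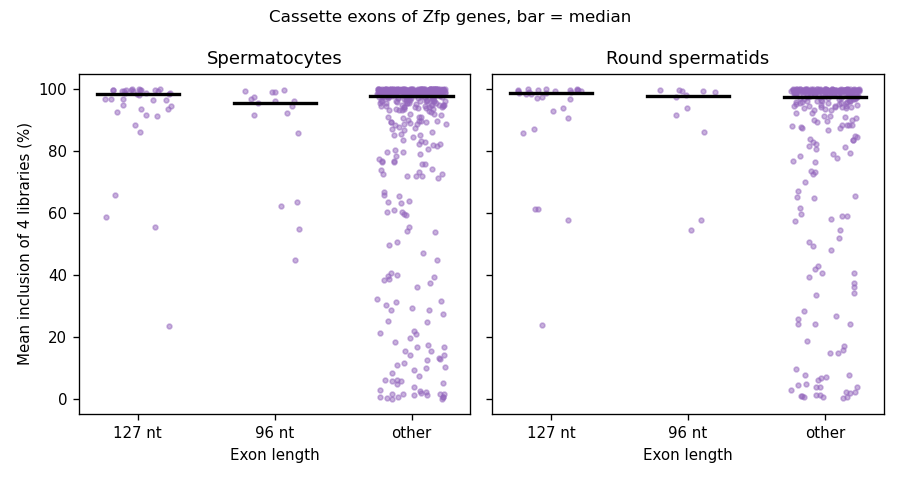
Mean inclusion over 4 libraries of each member cassette exon with at least 10 reads, by exon length and stage; bars are medians. Exons of 127 nt cluster near full inclusion, with Zfp961 lowest in both stages.

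Splice choice in Zfp genes differed between the stages. Inclusion was compared on length-normalised log2 odds with limma, over 32423 events measured in both stages, with Benjamini-Hochberg adjustment at 0.05. The fit set the mean of both sample groups of a stage against that of the other, so knock-out and wildtype libraries alike enter it. Of 428 member events 41 were called, in 28 of 138 genes, with 19 higher in spermatocytes and 22 in round spermatids. That is 9.58% of member events against 13.2% of all events, and 20.3% of genes against 30.5%, and member events had fewer reads (median 156.75 against 446.25 in spermatocytes). On simulated tables limma called more unchanged events than its nominal rate. A quasi-binomial model held its rate but was less sensitive there, and it called 32 member events here. Both models called 30 member events in 22 genes (7.01%, against 10.4% of all events), 13 higher in spermatocytes and 17 in round spermatids. All genes named in the following 2 paragraphs have events called by both.

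The smallest p belonged to a 93-nt intron of Zfp512b (mm10 chr2:181589960-181590052, minus strand). It was retained at 74.3%, 64.1%, 62.8% and 64.2% in spermatocytes and at 47.3%, 39.1%, 40.5% and 41.9% in round spermatids (log2 odds 1.40, SE 0.18, limma adjusted p = 9.11e-13). The stages did not overlap. In Zfp451 a mutually exclusive exon of 81 nt was used at 43.8% to 48.7% in spermatocytes and 24.1% to 29.4% in round spermatids. Against another partner exon its use was 98.7% to 100% in spermatocytes and 99.2% to 99.9% in round spermatids, and that event was not called (limma adjusted p = 0.143). In Zfp286 a 65-nt exon, counted in a pair of events that share it, was included at 24.8% to 41.8% in spermatocytes and at 69.7% to 88.0% in round spermatids. This was the widest shift among the 12 smallest p-values, with no overlap within either event. A further event of the exon, with a mean of 22.5 reads in spermatocytes, had 75.8% to 100% and 87.4% to 92.6% and was not called (limma adjusted p = 0.920). An alternative 5' splice site of Zfp329 was used at 58.3% to 71.3% in spermatocytes and 34.1% to 47.7% in round spermatids.

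Smaller shifts were resolved where reads were many. Zfp217, a corepressor that binds CoREST, used a 1512-nt mutually exclusive exon at 70.1% to 73.2% in spermatocytes and 76.7% to 84.3% in round spermatids. Such a level, as for Zfp451 above, compares reads of paired exons and need not be the share of transcripts with the exon. Cassette exons of Zfp217 had mean inclusion of 98.8% to 99.9% in spermatocytes and 99.1% to 99.95% in round spermatids. Zfp541 included a 143-nt exon at 93.5% to 99.0% and 99.5% to 99.7%. Zfp384, a nuclear matrix protein, had an event of a 942-nt exon at 14.3% to 16.7% and 17.6% to 30.4%. These events of Zfp217, Zfp541 and Zfp384 were each higher in round spermatids with no overlap. The first 183 nt of the Zfp384 exon also form an exon, at 51.4% to 56.9% and 56.9% to 70.2%. The alternative 5' splice site adding the other 759 nt was used at only 0.46% to 1.29% and 1.54% to 2.38%. Both models called these events too. Reads of the 183 nt can count toward the 942-nt event, so its level is not that of the long form alone. Limma called 3 of 23 tested events of 127-nt exons (all events: 13.2%), in Zfp451, Zfp558 and Zfp977, that of Zfp451 by limma alone. Those of Zfp558 (80.4% to 96.6% against 95.6% to 100%) and Zfp977 (89.8% to 97.1% against 35.1% to 73.0%) went in opposite directions. The stages overlapped for Zfp558 but not for Zfp977. The Zfp977 event had a mean of only 15.75 reads in round spermatids, and its 35.1% rests on 2 inclusion and 2 skipping reads. A further event of the Zfp558 exon, at 87.5% to 94.5% and 91.4% to 93.6%, was not called (limma adjusted p = 0.919). Zfp687, a partner of ZMYND8, included its 96-nt exon at 40.7% to 46.7% in spermatocytes and 52.3% to 72.3% in round spermatids on the event that was called. On another event of the same exon, with other flanking exons and more reads, inclusion was 34.5% to 64.7% and 49.2% to 64.4%, the stages overlapped, and limma did not call it (adjusted p = 0.902).

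**Figure D4:**
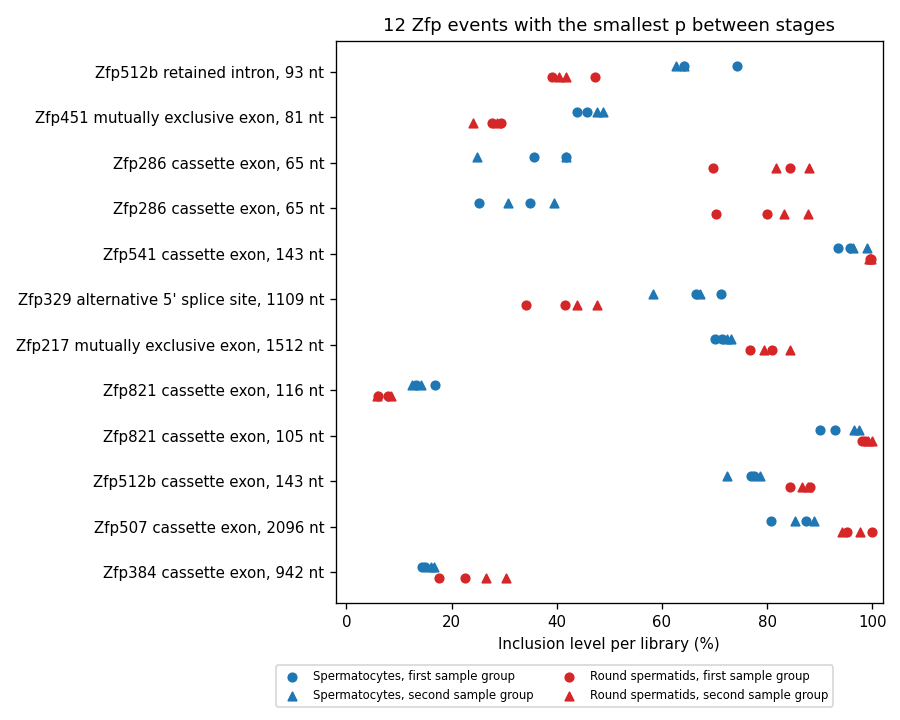
Inclusion level in each of 8 libraries for the 12 Zfp events with the smallest p between the stages; colour marks the stage and shape the sample group. The stages separate in all 12, from a few points in Zfp541 to over 40 points in Zfp286.

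Between the sample groups no inclusion change of a Zfp gene passed the test. In spermatocytes limma called 0 of 816 member events (all events: 0.542%) in 189 genes (all genes: 2.58%), with 59 at an unadjusted p under 0.05 (7.23%, against 8.63%), and the quasi-binomial model called 0. In round spermatids limma called 0 of 525 (all events: 0.131%) in 156 genes (all genes: 0.515%), with 32 at an unadjusted p under 0.05 (6.10%, against 5.89%), and the quasi-binomial model called 0. The median log2 odds difference was -0.27 against -0.38 over all events in spermatocytes and -0.29 against -0.13 in round spermatids. By size alone, 58 member events in spermatocytes (7.11%, against 4.52%) and 42 in round spermatids (8.0%, against 4.02%) were at least 10 points apart with no overlap, of which 37 and 33 were lower in the first group. In the authors' deposited table, 34 of 863 member events in spermatocytes (3.94%, against 2.5%) had FDR under 0.05 and at least 10 points, 27 of them lower in the first group. In round spermatids the authors' deposited table had 16 of 610 (2.62%, against 1.47%), 14 lower. The share of lower events was not counted over all events, so this lean is not shown to be particular to Zfp genes. Tested member events had fewer reads (median 138.625 against 381.25 over all events in spermatocytes, and 131 against 391.25 in round spermatids). The part of coverage in these shares was not tested.

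The members nearest to the threshold were Zfp414, Zfp512b and Zfp646. Zfp414 included a 77-nt exon at 17.1% and 23.4% in the first group of spermatocytes and 48.2% and 38.3% in the second (log2 odds -1.55, SE 0.43, limma adjusted p = 0.0573). Zfp512b included a 171-nt exon at 71.9% and 77.3% against 84.9% and 86.9% (limma adjusted p = 0.0782). In round spermatids Zfp646 included a 205-nt exon at 65.0% and 65.4% against 82.7% and 79.4% (limma adjusted p = 0.0902). The groups did not overlap in any of these. When only events with at least 2 reads of the rarer form were tested, limma called all 3, with adjusted p of 0.0195, 0.0195 and 0.0230. It also called an event of Zfp541 in spermatocytes, higher in the first group (log2 odds 0.86, adjusted p = 0.0222). On simulated tables with one kind of noise many of the limma calls in spermatocytes were false, and the quasi-binomial model called none of these events.

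Larger differences rested on fewer reads. The 127-nt exon of Zfp961 was included at 11.5% and 14.5% against 27.6% and 40.7% in spermatocytes, and at 0% and 0% against 74.8% and 21.3% in round spermatids, where the event had a mean of 10 reads and the first of these values rests on 1 read. It was lower in the first group in both stages, with limma adjusted p of 0.250 and 0.642. Zfp951 included a 45-nt exon at 55.5% and 51.9% against 22.8% and 26.8% in spermatocytes. Zfp740 included a 124-nt exon at 19.3% and 26.7% against 64.5% and 46.6% in round spermatids. Neither was called.

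Reads of Zfp genes changed between the sample groups in 2 members, both higher in the first group of spermatocytes. That is 2 of 189 (1.06%), where limma called 5.76% of all genes, 4.9% higher and 0.862% lower. Zfp532, which encodes a partner of ZMYND8, had 30.2 and 15.1 CPM against 1.73 and 4.54 (log2 2.91, SE 0.46, limma adjusted p = 0.0067). Zfp639 had 53.8 and 53.3 CPM against 32.7 and 30.3 (log2 0.76, SE 0.18, limma adjusted p = 0.0295). With voom weights neither was called (adjusted p 0.0943 and 0.0990), and limma then called 6 of the 9861 genes in all. The median log2 difference of members was 0.11 against 0.16 over all genes, and -0.05 against 0.01 with median-ratio scaling. That scaling called 482 genes higher and 267 lower over all genes, where the first scaling called 483 and 85. Among members it called Zfp532 and Zfp711 higher and Zfp608 lower, and not Zfp639.

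Markers of several cell types, spermatocytes included, differed between the sample groups of spermatocytes. Summed spermatogonia markers (8 of 9 measured, 6 called higher) were 493 and 185 CPM against 69.4 and 66.5. Summed Sertoli markers (5 of 7 measured, 3 called higher) were 228 and 157 against 49.6 and 87.7. Summed spermatocyte markers (9 of 9 measured, 5 called higher) were 4285 and 3706 against 3637 and 2914. Summed elongating spermatid markers (4 of 5 measured, none called) were lower without overlap, at 1739 and 2093 against 2741 and 2456. Their part in the reads of Zfp532 and Zfp639 was not tested.

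In round spermatids limma called 0 of 156 members (all genes: 0.0859%, of which 0.0751% higher and 0.0107% lower in the first group), with 10 at an unadjusted p under 0.05 (6.41%, against 11.0%), and voom weights also gave 0. The smallest p was that of Zfp513, at 0.99 and 0.46 CPM against 3.10 and 3.66 (log2 -2.25, SE 0.56, limma adjusted p = 0.158). Zfp513 had few reads in the first group and met the coverage threshold through the second. No member of the KRAB, RNA or chromatin lists was called for reads or inclusion between sample groups in either stage. Of 28 measured genes of the KRAB corepressor machinery, 1 (3.57%, against 5.76% of all genes) was called for reads in spermatocytes, the chromatin remodeler Smarcad1, at 4.85 and 3.21 CPM against 0.58 and 0.57. Its reads in the second group were near the floor, and it met the coverage threshold through the first group.

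**Figure D5:**
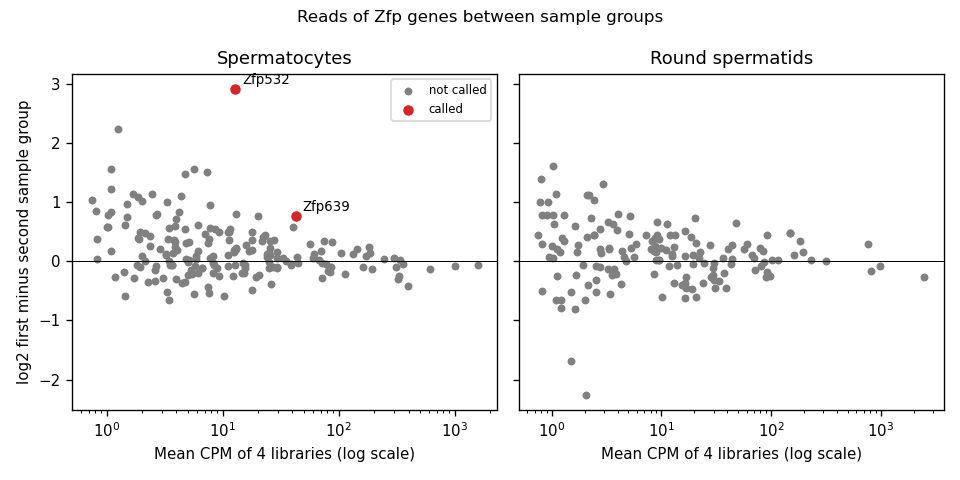
Difference in reads between sample groups (log2, first minus second) against mean CPM on a log scale, for the 189 and 156 Zfp genes tested in each stage. Zfp532 and Zfp639 are the called genes, and no gene was called in round spermatids.

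By position, 55 of the 204 members lay on chromosome 7 (27.0%, against 8.02% of all genes at the same coverage), 18 on chromosome 17 (8.82%, against 4.79%) and 17 on chromosome 13 (8.33%, against 3.20%). Neighbouring Zfp genes can be near-identical copies, and reads may have been split between them.

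The promoters of the members were searched for the cAMP response element, TGACGTCA, a palindrome that reads alike on both strands and is bound by factors of the CREB and CREM family, which act in spermatids. RefSeq (GRCm38.p6) held an entry for 168 members. The element lay in the 250 bases before the start in 9 of them (5.36%), against 1.77% of 27025 genes of any coverage and 3.04% of 8458 genes at the members' coverage. In order of symbol these are Zfp266, Zfp335, Zfp367, Zfp426, Zfp473, Zfp523, Zfp595, Zfp72 and Zfp874a. Of the 6 measured in both stages, Zfp72 (log2 3.52) and Zfp426 (1.36) had more reads in round spermatids, and the other 4 had fewer (-1.99 to -1.25). A pair of promoters is shown, chosen after the values were seen, for members with far more reads in round spermatids, one with the element in capitals (Zfp72, chr13:74390830-74391079, minus strand) and one without it (Zfp451, chr1:33814596-33814845, minus strand).
Zfp72: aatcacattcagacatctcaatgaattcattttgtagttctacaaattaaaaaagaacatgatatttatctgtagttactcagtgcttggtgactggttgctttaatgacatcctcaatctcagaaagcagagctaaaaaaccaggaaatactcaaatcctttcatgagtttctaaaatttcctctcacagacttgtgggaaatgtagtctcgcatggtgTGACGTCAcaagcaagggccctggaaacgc
Zfp451: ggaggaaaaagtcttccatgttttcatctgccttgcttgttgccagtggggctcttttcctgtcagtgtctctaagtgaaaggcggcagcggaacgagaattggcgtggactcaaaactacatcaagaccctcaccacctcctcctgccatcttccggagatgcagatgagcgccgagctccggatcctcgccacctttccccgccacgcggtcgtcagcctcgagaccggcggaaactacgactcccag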

How the data were processed

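Reads were aligned with STAR to mm10, per the submitters' processing notes (versions: not given in the sources). The deposited tables list, per splicing event of 5 types and per library, inclusion and skipping read counts, effective lengths, inclusion fractions and their difference as a score, with p-values and FDR by the authors. Inclusion was recomputed from the deposited counts and differed from the deposited fractions by rounding. Events with a mean of at least 10 reads per library and a read of each form were fitted with limma 3.58.1 (R 4.3.3) on log2 odds, with 0.5 reads added, counting weights and a trend of the spread on reads of the rarer form. Reads used each gene's most covered event as log2 CPM. Adjustment ran over all events or genes.

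On simulated tables changes in inclusion were planted only in events with at least 10 reads of the rarer form, and there estimates were unbiased. Most member events have fewer such reads (median 2.25 in spermatocytes and 2.5 in round spermatids), and inclusion within round spermatids was not simulated. Limma on inclusion made more false calls than its nominal rate, though within spermatocytes only with part of the noise tried. The quasi-binomial model did not but recovered fewer changes, so both counts are given. The first simulations kept events without a read of one form, which the analysis of the real tables leaves out; this was corrected. Members, lists and the trend were chosen with earlier results of these data known. Named genes are those called, those of largest difference without overlap, the most covered, those beside the threshold, and listed genes of most coverage; Zfp474, Zfp688, Zfp287, Zfp462 and Zfp72 were chosen after their values were seen.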

Additional observations from a re-analysis of the deposited data

How the results depend on the processing

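Each sample group has 2 libraries, and leaving 1 out leaves little to estimate the spread from, with the lone library assumed to vary like the others. No paired analysis was possible because the columns carry no replicate numbers; position in the table was tried as a covariate instead. For inclusion in spermatocytes the 0 calls became 2 with unscaled added reads, 3 with at least 2 reads of the rarer form, 2 with the position covariate and 4 with 8 libraries, and ranged from 0 to 128 with 1 library left out (128 without first-group library 1 and 110 without first-group library 2). For inclusion in round spermatids the 0 became 1 with at least 2 reads of the rarer form, 1 with position and 1 with 8 libraries, and ranged from 0 to 68 (68 without first-group library 1). Between stages the 41 became 25 without count weights and ranged from 24 to 40 (24 without the second round spermatid library of the first group, 26 without the first of the second group). For reads in spermatocytes the 2 became 1 per form length, 4 with reads of all events, 0 with voom weights and 9 with position, and ranged from 1 to 11 (11 without first-group library 2, and 1 without first-group library 1 or second-group library 2). For reads in round spermatids the 0 ranged from 0 to 12 (12 without first-group library 2, 1 without first-group library 1). The cause was not tested. Zfp639 kept its call in 7 of 12 alternatives. It lost it with median-ratio scaling (adjusted p = 0.0502), voom weights (0.0990) and without first-group library 1 (0.252), second-group library 1 (0.0613) or second-group library 2 (0.0944). Zfp532 kept its call in 10 of 12, and lost it with voom weights (0.0943) and per form length (0.0595). The low read counts of Zfp events limit what could be detected, so a count of 0 does not show that inclusion was alike.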
